A study of Mus musculus with 6 samples.

Results

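Afp, Alb and Afm encode alpha-fetoprotein, albumin and afamin, secreted carrier proteins of one gene family. They are 3 of the 18193 genes that a probe set of the array names alone, and were represented by 8 of 45037 probe sets, control probe sets left out: 5 for Afp, 1 for Alb and 2 for Afm. A probe set was taken when the platform annotation gave it exactly 1 gene symbol and that symbol was Afp, Alb or Afm. The family was chosen by the log2 values of Afp, which were lower after TAC (transverse aortic constriction) in earlier work on these same 6 arrays. Every difference of Afp, Alb and Afm between the groups is therefore a description and carries no test.

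The arrays measured RNA of stellate ganglia from male mice of the strain C57/Bl6, of an age that the labels do not give. The stellate ganglia are sympathetic ganglia at the base of the neck that send nerve fibres to the heart. One group of 3 mice had TAC, a narrowing of the aortic arch that makes the left ventricle pump against a higher pressure, and the control group of 3 mice had a sham operation. Tissue was taken 8 weeks after surgery, both ganglia of an animal went onto 1 array, and the arrays carry the letters A, B and C in each group. No allele or drug treatment is named for either group. The tissue label was checked against Th, Dbh and Slc6a2, which define noradrenergic neurons: on the log2 scale used throughout, they measured 13.55 to 14.61 on all 6 arrays.

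Alpha-fetoprotein is the main plasma protein of the fetus, made by yolk sac and fetal liver, and its gene is largely silenced in the liver after birth. Albumin takes over as the main plasma protein of the adult, where it carries fatty acids, hormones and drugs. Afamin carries vitamin E and lipid-modified Wnt proteins. In rodents alpha-fetoprotein also binds oestrogen. None of these genes is counted among the usual markers of sympathetic ganglia.

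The 3 genes lie in a row on chromosome 5 and are read in the same direction. In the mouse assembly GRCm38.p6, Alb spans 90460870 to 90476602, Afp 90490714 to 90508907 and Afm 90518949 to 90553544. The intervals between them are 14111 bases from Alb to Afp and 10041 bases from Afp to Afm. The 250 bases before each start site, from RefSeq on the plus strand of GRCm38.p6, are shown because these neighbours had unlike values on the same arrays: the Afp promoter at chr5:90490464-90490713, the Alb promoter at chr5:90460620-90460869 and the Afm promoter at chr5:90518699-90518948. Capitals mark matches, on either strand, to CCAAT (the CCAAT box), TATAAA (the TATA box) and TGACCC (a core recognised by nuclear receptors).
Alb: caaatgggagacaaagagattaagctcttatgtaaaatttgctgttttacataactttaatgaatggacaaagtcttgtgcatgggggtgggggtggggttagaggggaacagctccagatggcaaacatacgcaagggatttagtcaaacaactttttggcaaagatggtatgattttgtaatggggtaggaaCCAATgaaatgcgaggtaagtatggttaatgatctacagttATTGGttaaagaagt
Afp: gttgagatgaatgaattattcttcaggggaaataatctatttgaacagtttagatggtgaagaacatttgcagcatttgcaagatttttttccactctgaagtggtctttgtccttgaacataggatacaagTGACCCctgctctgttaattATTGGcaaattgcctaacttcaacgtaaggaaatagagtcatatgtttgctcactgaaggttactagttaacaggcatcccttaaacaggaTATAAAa
Afm: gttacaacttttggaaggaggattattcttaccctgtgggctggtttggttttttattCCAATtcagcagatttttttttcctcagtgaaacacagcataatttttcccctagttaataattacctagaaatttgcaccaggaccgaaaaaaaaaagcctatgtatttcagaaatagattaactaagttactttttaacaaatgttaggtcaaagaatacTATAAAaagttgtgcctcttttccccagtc
The Afp window had TGACCC 118 to 113 bases before the start site, the reverse complement of CCAAT at 98 to 94 and TATAAA at 7 to 2. The Alb window had CCAAT 56 to 52 bases before the start and its reverse complement at 15 to 11. In the Afm window CCAAT lay at 192 to 188 and TATAAA at 30 to 25. Over the 32851 windows of the same length in the RefSeq promoter table, 33.8% held CCAAT or its reverse complement, 12.4% TATAAA and 11.6% TGACCC. Searched motifs did not overlap in these 3 windows, and a match shows letters, not a bound site. Only these exact strings and their reverse complements were searched. Variants of the sites are unmarked, so a window without a match may still hold one.

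Afp was the family member with a high signal in the ganglia, and by the brightest of its 5 probe sets its level was 5.07-fold lower after TAC. With all 5 probe sets averaged, 3 of them dim, the TAC minus sham difference was -1.09 on the log2 scale, against -2.34 for the brightest alone. The brightest probe set, 1416645_a_at, measured 12.04, 11.12 and 10.92 in the sham mice A, B and C and 8.31, 9.46 and 9.29 in the TAC mice A, B and C. All 3 TAC arrays lay below all 3 sham arrays, with sham A the highest and TAC A the lowest of the 6. The group means were 11.36 ± 0.59 in sham and 9.02 ± 0.62 in TAC (SD, n = 3), a TAC minus sham difference of -2.34 (moderated SE 0.40). On the linear scale of the deposited intensities the probe set ran from 1943.4 to 4198.9 in sham and from 316.9 to 701.9 in TAC. In these bulk samples fewer cells of a type and less RNA per cell cannot be told apart.

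A second Afp probe set gave the same order of groups. 1436879_x_at measured 10.46, 9.49 and 9.69 in the sham mice A, B and C and 7.15, 8.14 and 8.07 in the TAC mice A, B and C. Again no TAC array reached a sham array, sham A was highest and TAC A lowest. Its means were 9.88 ± 0.51 and 7.79 ± 0.55 (SD, n = 3), a difference of -2.09 (moderated SE 0.35) or 4.26-fold lower. On single arrays it lay 1.15 to 1.63 below 1416645_a_at on the log2 scale. Over the 6 arrays its values followed those of 1416645_a_at with a Pearson r of 0.995, and its deviations from the group means did so with r = 0.969, both given as descriptions because the probe sets read the same RNA. The ending _x_at marks a probe set with probes that may also match other sequences.

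**Figure D1:**
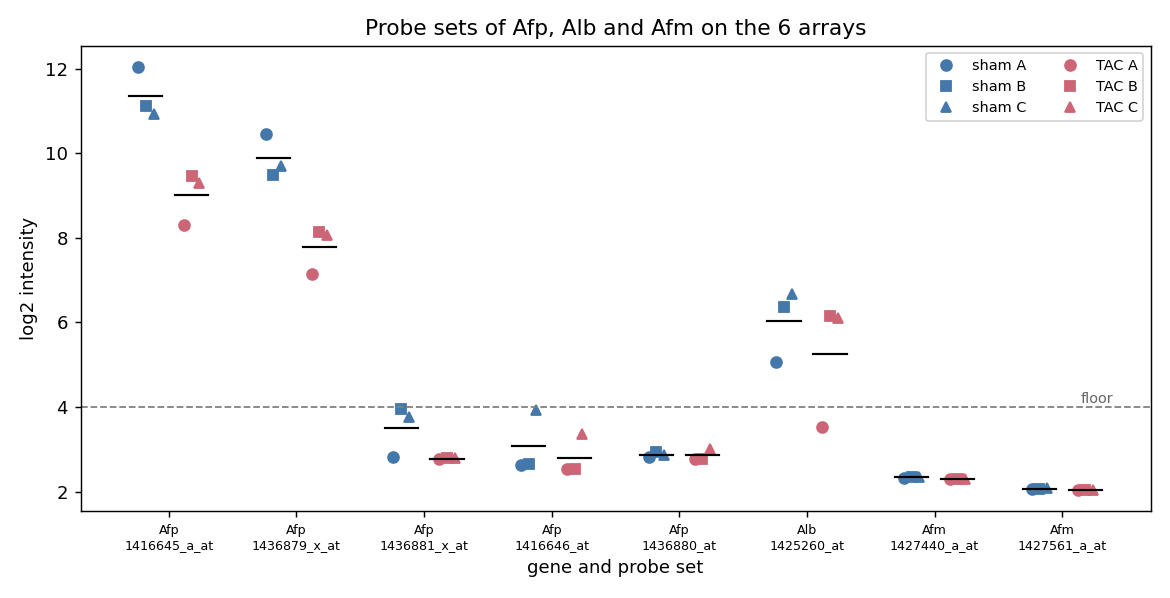
Log2 intensity of the 8 probe sets of Afp, Alb and Afm on the 6 arrays; points are arrays, with one marker shape per letter, black lines are group means, and the dashed line is the floor of 4. The 2 bright Afp probe sets separate the groups, Alb does not, and the other 5 probe sets lie under the floor.

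The remaining 3 Afp probe sets were dim, with a mean log2 intensity under 4 over the 6 arrays, and their group differences were between -0.73 and -0.02. 1436881_x_at measured 2.82, 3.96 and 3.75 in the sham mice A, B and C and 2.76, 2.79 and 2.79 in the TAC mice A, B and C. Its sham A value, unlike that of the bright probe sets, was the lowest of the sham arrays. 1416646_at measured 2.63, 2.65 and 3.93 in sham and 2.52, 2.53 and 3.36 in TAC, where the C array of each group stood above the others and the groups overlapped. 1436880_at stayed between 2.78 and 3.01 on all arrays, with overlapping groups. The platform annotation gives 1416646_at the same source transcript as the brightest probe set, and 1436880_at and 1436881_x_at share one source sequence. Why 2 probe sets of Afp were bright and 3 dim was not tested. The dim probe set nearest the floor was 1436881_x_at, with a mean of 3.15 over all arrays, and the nearest member above it was Alb at 5.64.

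Of 17550 probe sets above the floor, limma called 0% at an adjusted p under 0.05. The bright Afp probe sets ranked 2 and 6 from the most negative difference, among probe sets of the muscle genes Tnnc2 and Myh1 and 1 with no symbol. Of the 3 family probe sets above the floor, 2 had all TAC arrays below all sham arrays, which held for 8.85% of the tested probe sets; this contrast chose the family, so nothing is read from that share. The spread of Afp within groups was also wide: the pooled SD of 1416645_a_at was 0.607, and 98.7% of tested probe sets had a smaller one. Mice of the same group thus differed by up to 1.15 on the log2 scale in TAC and by 1.11 in sham.

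Alb was measured near the floor and did not separate the groups. Its only probe set, 1425260_at, measured 5.05, 6.37 and 6.67 in the sham mice A, B and C and 3.53, 6.14 and 6.10 in the TAC mice A, B and C. TAC A was the lowest array, as for Afp, but sham A was lower than TAC B and TAC C, and the groups overlapped. The means were 6.03 ± 0.86 and 5.26 ± 1.49 (SD, n = 3), a difference of -0.77 (moderated SE 0.79), which is less than its own standard error. The difference rested on 1 array: without TAC A it was 0.09. The order of the sham arrays was also unlike that of Afp, since sham A was the highest array for Afp and the lowest sham array for Alb.

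Afm was dim on every array. 1427440_a_at lay between 2.30 and 2.35, and 1427561_a_at between 2.04 and 2.07. Their TAC minus sham differences were -0.03 each, and in both the TAC values all lay below the sham values. Such small downward differences were usual among dim probe sets: of the 27487 under the floor, 87% had a lower TAC mean and 71.6% had all TAC arrays below all sham arrays. No fold is given for Afm, since both groups lay under the floor.

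The fourth classical member of the family, Gc, which encodes the vitamin D binding protein, was not analysed here. Albfm1, an albumin superfamily gene beside Afm, measured 4.05 to 4.15 on all arrays, at the floor, with a difference of -0.04 (moderated SE 0.07, limma adjusted p = 0.860). Of the 8 genes taken as neighbours, 4 on each side of the run, 5 had a probe set and 3 were above the floor. Ankrd17 differed by 0.05 and Cox18 by -0.04, while Gm9958 and Rassf6 stayed at or under 2.74. None of the 3 tested neighbours was called, and their median difference was -0.04, against 0.03 over all tested probe sets.

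Around the family, 7 lists of 84 genes were examined: regulators of Afp, fetal liver genes, handling of albumin and alpha-fetoprotein, other plasma proteins, oestrogen signalling, the neighbours and Gc. In all, 37 genes were tested, 34 were dim and 13 had no probe set with that symbol alone. No gene of the 37 was called by limma (0 at an adjusted p under 0.05). Unadjusted, 2 had a p under 0.05, which is 5.41% against 9.08% of all tested probe sets.

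By Pearson r over the 6 arrays, transthyretin came closest to Afp in its pattern. Ttr encodes a plasma carrier of thyroxine and of retinol-binding protein. Its brightest probe set, 1454608_x_at, measured 8.76, 8.66 and 8.56 in the sham mice A, B and C and 7.17, 8.38 and 7.94 in the TAC mice A, B and C. As with Afp, the groups did not overlap, sham A was highest and TAC A was lowest. The means were 8.66 ± 0.10 and 7.83 ± 0.61 (SD, n = 3), a difference of -0.83 (moderated SE 0.29) that limma did not call (adjusted p = 0.542, range 0.238 to 0.824 over the alternatives). Without TAC A the difference was -0.50.

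The other probe sets of Ttr were not alike. 1455913_x_at measured 8.78, 8.64 and 8.21 in sham and 7.10, 7.96 and 7.52 in TAC, a difference of -1.02 with groups that did not overlap, and both bright probe sets of Ttr carry the ending _x_at. 1459737_s_at, at a mean of 4.33, was 0.41 higher in TAC with TAC B as its highest array, and 1451580_a_at was dim and differed by 0.06.

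Among 23 plasma protein genes with a probe set, 7 were above the floor and 16 were dim. The dim ones included Ahsg (fetuin A), Rbp4 (retinol-binding protein), Apoa1 (the main protein of high-density lipoprotein) and the fibrinogen chains Fga, Fgb and Fgg. Serpina3n, an acute-phase protease inhibitor, measured 7.31, 7.27 and 7.50 in sham and 7.65, 8.78 and 7.57 in TAC (limma adjusted p = 0.567), and Apoe, a lipid carrier also made by glia, differed by -0.21. The median difference of the 7 was -0.06, with 0 called.

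Several transcription factors that drive Afp and Alb in liver had no signal above the floor, while other regulators in the list did. Cebpb measured 5.61 to 6.50, Nfia 8.18 to 8.40 and Nfib 7.94 to 8.63, and Cebpa was at the floor with a mean of 4.02. Hnf4a, Foxa1, Foxa2, Foxa3 and Nr5a2 were dim, at 2.00 to 3.04 on all arrays, and Zhx2, a repressor of Afp after birth, measured 2.82 to 2.92. Of 18 regulators with a probe set, 12 were tested, with a median difference of -0.01 and 0 called. Zbtb20, another repressor of Afp in adult liver, was well above the floor at 8.91 to 9.39 and differed by 0.01. The smallest unadjusted p values in the list were those of the histone demethylase gene Kdm1a at -0.20, the corepressor gene Ctbp2 at -0.12 and Cebpa at -0.51, with limma adjusted p values of 0.562, 0.632 and 0.657.

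No fetal liver gene was called. Igf2 and Dlk1 were dim, and Gpc3, a heparan sulphate proteoglycan, differed by -0.21 (moderated SE 0.10). The metallothionein genes Mt1 and Mt2 were highest on TAC B, at 11.55 and 11.74, and differed by 0.55 and 0.74. Lpl, lipoprotein lipase, was highest on sham C and TAC B. Of 4 tested genes 0 were called, and their median difference was 0.17.

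Receptors and partners of albumin were tested next. Fcgrt, the neonatal Fc receptor that recycles albumin, measured 6.80, 6.80 and 6.83 in sham and 6.74, 6.77 and 6.73 in TAC, a difference of -0.06. The endocytic receptor genes Lrp2, Cubn and Amn were dim. Dab2, an adaptor of endocytosis, measured 4.57, 3.78 and 3.09 in sham and 4.58, 4.77 and 4.63 in TAC, a difference of 0.85 that limma did not call (adjusted p = 0.548). The median over the 7 tested genes was -0.06. In oestrogen signalling the receptor genes Esr1 and Gper1 and the hormone-responsive Pgr were above the floor, 0 of 4 tested genes were called and the median was -0.10.

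**Figure D2:**
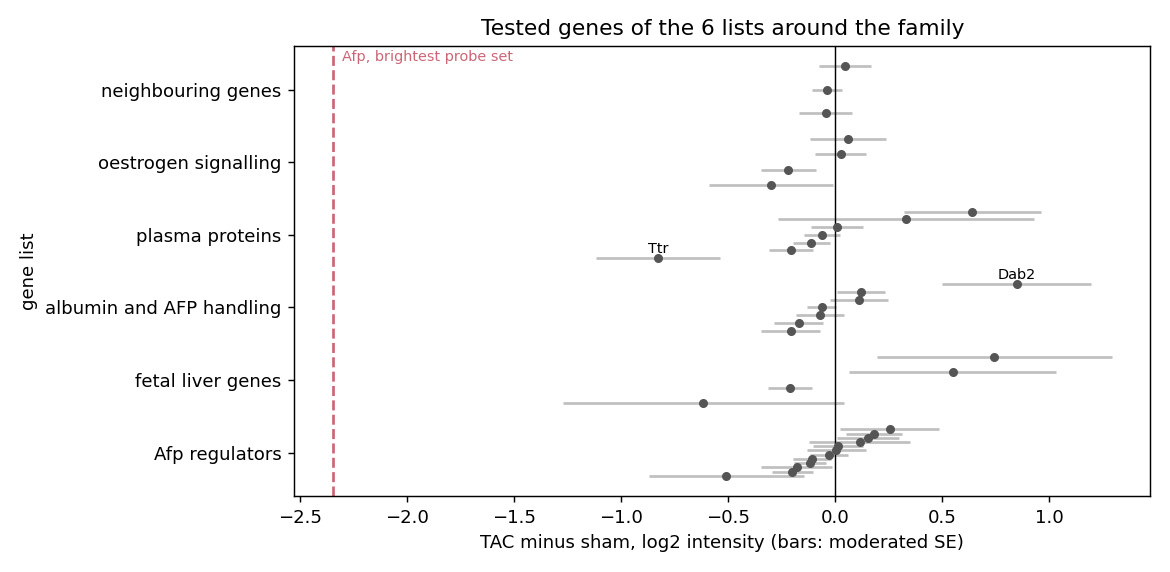
TAC minus sham log2 difference of every tested gene in the 6 lists with tested genes, with moderated standard errors; the dashed line is the difference of the brightest Afp probe set at -2.34. Most genes lie near 0, and the 2 named genes, Ttr and Dab2, had an unadjusted p under 0.05 but were not called.

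The array pattern of Afp was set against 250 other genes whose brightest probe set was above the floor with an SD of at least 0.5 over the 6 arrays. By Pearson r over the 6 arrays, the most similar were Ttr (0.90), the retinoic acid binding protein gene Crabp1 (0.88), the polysialyltransferase gene St8sia2 (0.86), the receptor phosphatase gene Ptprd (0.84), the red cell anion exchanger gene Slc4a1 (0.84) and the transcription factor gene Egr1 (0.83). The least similar were the peptide genes Cartpt (-0.93) and Sst (-0.89) and the Ras-like gene Rerg (-0.85). These values partly restate that the genes differ between the groups in the same or the opposite direction. St8sia2, Ptprd and Sst were above 4 on 3 arrays each, those of the group where they were high, so they entered the comparison through that group and had to differ. Without sham A and TAC A, the 2 arrays farthest from the median of Afp, r was 0.86 for Ttr, 0.95 for Crabp1 and 0.92 for Egr1, so Ttr no longer came first. These r values are likenesses among the arrays and no tests.

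With the group means taken out, so that only mice of the same group were compared, the order changed. The most similar genes were Alas2, which encodes the first enzyme of haem synthesis in red cell precursors (r = 0.99), Tent5c (0.97), Camk2n1 (0.94), Kcnd3 (0.93), Slc22a23 (0.87) and Rfc4 (0.86), and Ttr stood at 0.80. The least similar were Igha (-0.90), Col6a3 (-0.67) and Gpat2 (-0.64). Alas2 measured 5.88, 4.28 and 4.31 in the sham mice A, B and C and 2.67, 4.63 and 4.28 in the TAC mice A, B and C. Like Afp, it was highest on sham A and lowest on TAC A, but its groups overlapped. Without those 2 arrays r was 0.56 for Alas2, 0.46 for Tent5c and 0.73 for Camk2n1. It was 0.12 for Kcnd3, 0.51 for Slc22a23, 0.67 for Rfc4 and 0.78 for Ttr. With 2 arrays left in each group, these values rest on too few numbers to be ranked, and nothing is read from them.

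**Figure D3:**
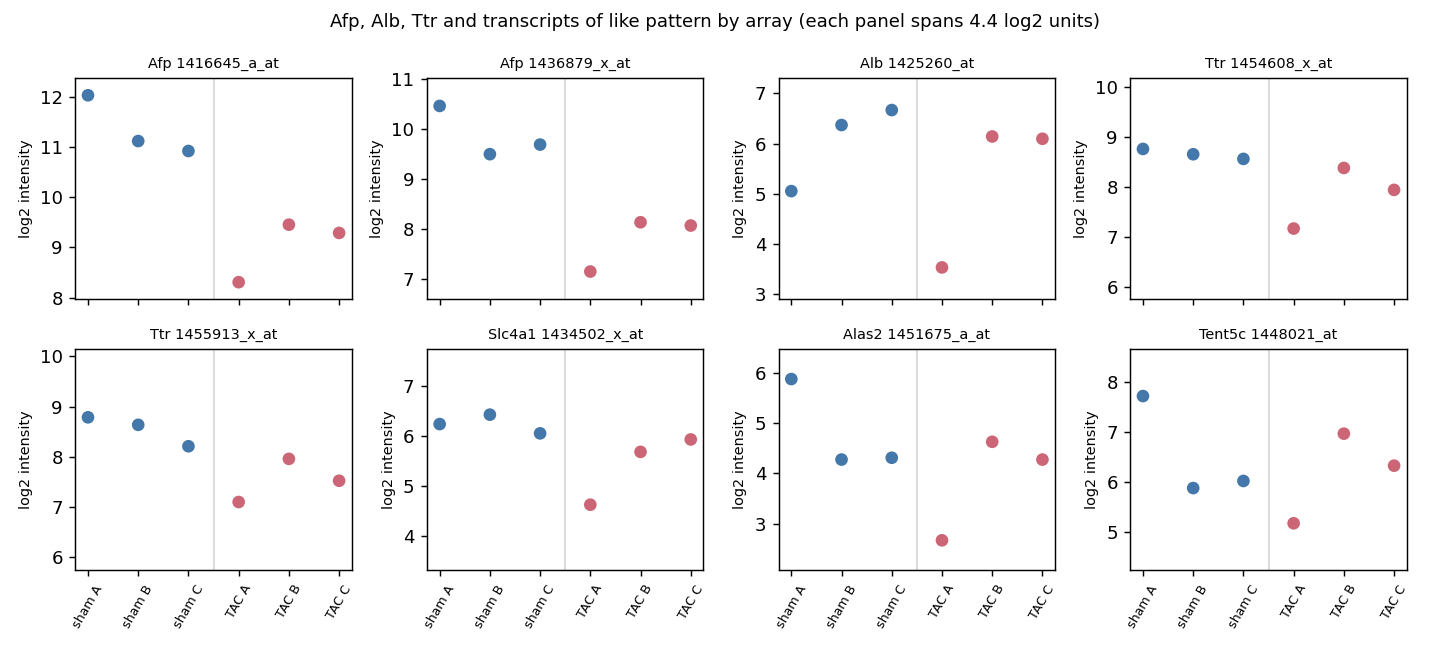
Log2 intensity on each array for the 2 bright Afp probe sets, Alb, 2 probe sets of Ttr, and Slc4a1, Alas2 and Tent5c; blue points are sham, red points TAC, and each panel spans the same height. TAC A is the lowest array in all 8 panels, and sham A is the highest in 6 of them, all but Alb and Slc4a1. Ttr, Slc4a1, Alas2 and Tent5c are shown for their likeness to Afp, so nothing is read from their sharing its highest or lowest array.

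Red cell markers, like Afp, were lowest on TAC A. Slc4a1 and Alas2 were also named above for their likeness to Afp, which this partly restates. Of 6 genes in that list 3 had a probe set with that symbol alone. Slc4a1 and Alas2 were above the floor, and the only such probe set of the globin gene Hba-a1 was dim at 2.40 to 2.46. Hbb-b1 and Hbb-bs had none, and probe sets with several symbols were left out, so globin RNA as a whole was not assessed. Slc4a1 measured 6.24, 6.43 and 6.06 in the sham mice A, B and C and 4.63, 5.69 and 5.93 in the TAC mice A, B and C, a difference of -0.82 (limma adjusted p = 0.546). In this brightest probe set of Slc4a1, which carries the ending _x_at, the groups did not overlap, and TAC A was again lowest. Another Slc4a1 probe set measured 4.05, 4.39 and 4.05 in the sham mice A, B and C. In the TAC mice A, B and C it measured 3.70, 4.43 and 4.26, so its groups overlapped. TAC A was its lowest array and TAC B its highest. The remaining Slc4a1 probe set was dim. The summed intensity of the list was 91.9 to 140 in sham and 36.5 to 85.8 in TAC, and its part in the difference of Afp was not tested.

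Liver markers beside Ttr and Alb were mostly dim. Of 9 hepatocyte markers with a probe set 5 were dim, among them Ahsg, Fgb, Cps1 and Tat, which stayed between 2.05 and 2.71 on all arrays. Above the floor were also Apoa2, an apolipoprotein gene, at 4.75 to 4.97, and Cyp2e1, a cytochrome P450 gene. Cyp2e1 measured 6.63, 6.21 and 8.71 in the sham mice A, B and C and 6.73, 9.30 and 7.02 in the TAC mice A, B and C, a difference of 0.50 in the direction opposite to Afp (limma adjusted p = 0.858). It was highest on TAC B and next on sham C, the arrays with the highest hepatocyte sums. Cyp2e1 is itself a bright part of the hepatocyte sums, so that match follows largely from its own values. The same arrays also had the highest brown and white fat sums, and which cells the Cyp2e1 RNA came from was not tested. The hepatocyte sums were 622 to 967 in sham and 319 to 1096 in TAC. Of 9 yolk sac markers 6 were dim, at most 2.70, and the sums were 483 to 516 and 237 to 505. Besides Ttr, those above the floor were Cited1 and Sox17. Ttr was the brightest gene of the yolk sac list and is also in the hepatocyte list, so both sums partly restate Ttr.

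Muscle and fat transcripts varied widely between mice of the same group. Of 11 skeletal muscle markers 5 were above the floor, and all 5 had a lower mean in TAC, as had 43.9% of all tested probe sets. Their median difference was -1.91, with overlapping groups and 0 called by limma (0 also at an unadjusted p under 0.05). Tnnc2 and Myh1 had TAC means of 3.27 and 3.52, under the floor. They passed it only through higher sham values and had to be lower in TAC, so nothing is read from the count. Tnnc2, Myh1, Acta1 and Myh4 lay beside Afp among the 8 probe sets of most negative difference. The muscle sums were 93.6 to 1777 in sham and 112 to 315 in TAC, with the lowest on sham B. Of 7 brown fat markers 4 were above the floor, and sums were 409.9 to 1591 in sham and 366 to 750.5 in TAC. White fat sums were 1859 to 7024 in sham and 1341 to 4543 in TAC. Both fat sums were lowest on TAC A, as Afp was, and highest on sham C and next on TAC B. Without both sham C and TAC B, Afp differed by -2.78. The part of muscle and fat in the difference of Afp was not tested.

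Of the 15 marker lists, 4 had sums that did not overlap between the groups. The red cell and immature neuroblast sums (the latter 19416 to 20827 against 17941 to 18929) were higher in sham. The adrenal chromaffin sum (6121 to 6402 against 7537 to 8533) and the endothelium sum (81.1 to 88.1 against 88.8 to 121) were higher in TAC. Of single tested probe sets, 8.85% had all TAC arrays below all sham arrays, a share for that direction alone, while the 4 sums cover both. No such share was worked out for sums, so nothing is read from the count. In the endothelium list 4 of 7 genes were dim. The neuroblast sum came mostly from Stmn1 (13.13 to 13.49) and Tubb3 (12.75 to 12.92), which mature neurons also express. Dcx and Igfbpl1 were dim, and Sox4 and Sox11 differed by -0.07 and -0.08. Insm1 measured 6.02, 5.86 and 5.50 in sham and 5.33, 3.89 and 5.32 in TAC, and limma did not call the difference of -0.94 (adjusted p = 0.549). The chromaffin sum came mostly from Chgb (12.11 to 12.69), a granin gene that sympathetic neurons also express. Pnmt, which encodes the adrenaline-making enzyme, differed by 0.02 and Chga by 0.15. Slc18a1 measured 6.48, 6.47 and 6.57 in sham and 7.19, 6.97 and 6.87 in TAC. Its difference of 0.50 was not called by limma (adjusted p = 0.512). The neuronal sum was 101532 to 110886 in sham and 107446 to 108825 in TAC. Sums of thymus epithelium, 59.96 to 65.3 and 61.4 to 64.3, came from 7 genes of which 6 were dim. The satellite glia, myelinating Schwann cell, fibroblast and macrophage sums overlapped between groups. The part of these cell types in the difference of Afp was not tested.

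**Figure D4:**
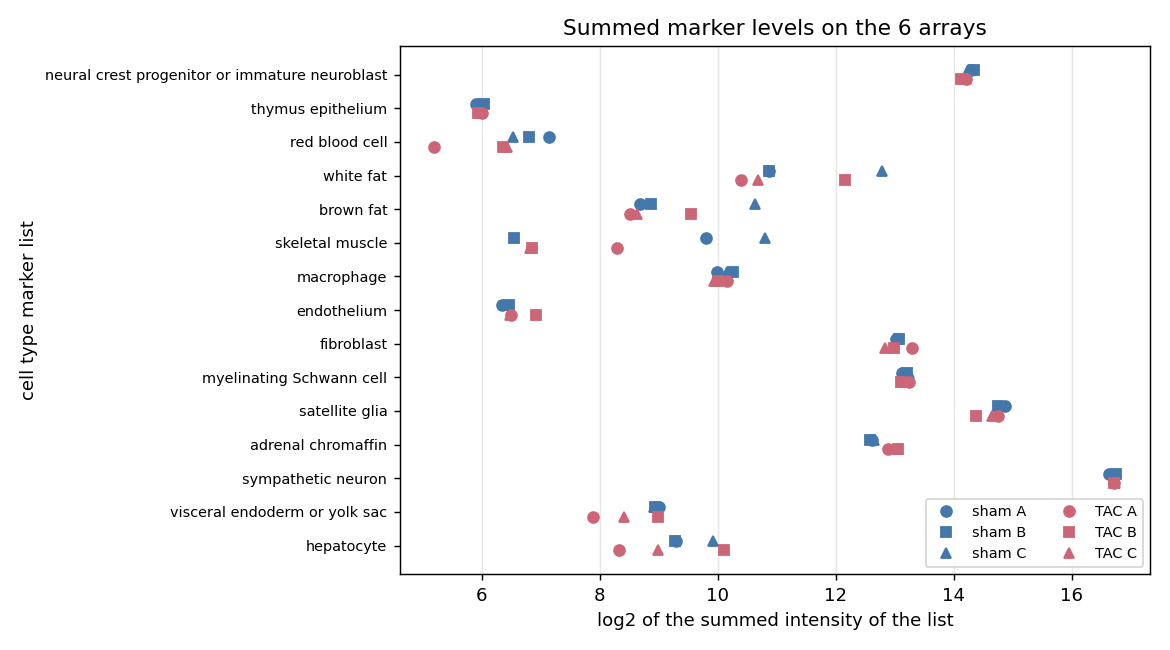
Summed linear intensity of each cell type marker list on the 6 arrays, plotted as log2, with blue for sham, red for TAC and one marker shape per letter. TAC A is the lowest array for red blood cell, yolk sac, hepatocyte, brown fat and white fat markers, and muscle and fat sums vary widely within each group. The yolk sac and hepatocyte sums both include Ttr, which was itself lowest on TAC A.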

How the data were processed

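Total RNA from both stellate ganglia of each mouse was hybridised to 1 Affymetrix GeneChip, per the labels' protocols. The authors deposited linear intensities per probe set and used GCRMA to make them, as the submitters' processing notes say. Its version is not given in the sources used here. GCRMA gives no detection call and compresses values near background. Here the values were log2-transformed with no pseudocount. After 64 control probe sets were left out of 45101, the 17550 with a mean log2 of at least 4 were fitted with limma 3.58.1 in R 4.3.3 (lmFit and eBayes, two-sided, Benjamini-Hochberg adjustment over all of them, threshold 0.05), which was checked on simulated data. Arrays correlated at 0.980 to 0.994, and their number, 3 per group, limits the precision.

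Symbols came from GEO's platform annotation (34945 probe sets with 1 symbol, 932 with several, 9160 with none; 0 needed an update). The brightest probe set stood for a list gene. All probe sets of the family were named, then per list the genes called or the 3 of smallest p, of which the text gives a part, and the genes most and least like Afp. Other list genes were named after their values were seen. The members and lists were chosen with earlier results of these data known. Alternatives covered the floor, scaling, a pseudocount, weights, the variance model, the title letter as a block, arrays left out and the mean of all probe sets. The letters gave no sign of pairing: deviations of same-lettered arrays correlated at 0.084, -0.0031 and -0.166. Arrays of unlike letters correlated at -0.133 to 0.139. With 3 arrays per group this cannot settle whether the mice were paired. Figures used matplotlib 3.10.9.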

Additional observations from a re-analysis of the deposited data

How the results depend on the processing

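The difference of Afp stayed negative in each alternative run. Afp was chosen for its fall on these arrays, and a gap of 1.47 separates the groups of its brightest probe set. Leaving out 1 array could therefore not change its sign, and nothing is read from the sign. It was -1.99 to -2.56 with 1 array left out, -2.25 to -2.39 under quantile normalization, median centring, array weights and a pseudocount of 16, and -1.09 as the mean of all 5 probe sets, since the 3 dim ones are then averaged in. Alb ranged from -1.26 without sham A to 0.09 without TAC A, and it could not be given with a floor of 6. Afm, dim throughout, was at 0.0021 after quantile normalization, -0.0804 after median centring and -0.0083 with the pseudocount, so its direction is not settled. Probe sets called over the whole table numbered 0, and 0 to 1 with 1 array left out: Mir670hg without TAC B and Sst without TAC C, neither of them in the family or its lists. At an unadjusted p under 0.05 there were 1594. With the title letter as a replicate block the count was 0, Afp was -2.34 and Ttr had a limma adjusted p of 0.602. Tested list genes called stayed at 0 in every alternative. Ttr stayed lower in TAC in all 16 alternatives, by -0.34 as the mean of its probe sets. Median centring moved the share of tested probe sets with a lower TAC mean from 43.9% to 54.6%.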
